A study of Mus musculus with 10 samples.

Results

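The 42 genes described here encode the contractile, Z-disc and calcium-handling proteins of skeletal muscle, without the myosin heavy chains. They were chosen by name, as the genes whose RefSeq accession names a non-control array probe, and all 42 were found among the 19752 gene symbols on the array, with 58 probes between them. By textbook fibre type, 12 are fast isoforms, 14 are slow or oxidative genes and 16 are pan-muscle, developmental or membrane genes. RNA was measured on 10 single-colour Agilent mouse arrays that form 5 groups of 2. The first muscle group was AP20187-injected TG mice (genotype Fv2E-PERK, made with an hSA::Fv2E-PERK transgene), collected 12 h after 1 ng/g of the compound. The others were TG mice collected 12 h after vehicle injection, and WT mice with no treatment, so that genotype and injection changed together against WT. All mice were male C57BL/6J, and their age and the muscle sampled are not given in the sources used here. The cell groups were C2C12 cells carrying Fv2E-PERK, differentiated for 3 days and then given 100 nM AP20187 or vehicle for 12 h, and both came from the same cell line. hSA denotes the human skeletal actin promoter, which drives the transgene in muscle fibres, and AP20187 is a compound made to dimerize and so activate the Fv2E-PERK kinase fusion, whose activation was not measured on these arrays. The labels do not say whether the 2 samples of a group came from separate animals or cultures, so p-values measure the spread between these samples, which may be technical.

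Skeletal muscle fibres shorten when calcium released from the sarcoplasmic reticulum binds troponin C on the thin filament, which moves tropomyosin and lets myosin heads reach actin. Fast and slow fibres use different isoforms of nearly every protein in this chain: fast fibres pair fast light chains and troponins with the calcium pump SERCA1 and the calcium store protein calsequestrin 1, while slow fibres use slow or cardiac isoforms with SERCA2 and also hold more myoglobin and mitochondria. Several slow and cardiac isoforms, and cardiac actin, are also made by embryonic and regenerating muscle.

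The calsequestrin pair moved in opposite directions between TG and WT muscle, cardiac actin had the lowest log2 change of the members there, and Mybpc2 fell in C2C12 cells to a signal not well above background, so the 250 bases before the start of these 4 genes are shown. The sequences are those of RefSeq on GRCm38.p6, written 5′ to 3′ on the strand of the gene, and capitals mark the matches to the motifs named after them.
Casq1: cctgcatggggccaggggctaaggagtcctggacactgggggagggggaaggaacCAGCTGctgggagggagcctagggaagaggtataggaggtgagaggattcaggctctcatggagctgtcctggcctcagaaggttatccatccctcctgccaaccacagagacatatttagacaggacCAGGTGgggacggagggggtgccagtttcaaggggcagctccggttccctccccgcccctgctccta
Casq2: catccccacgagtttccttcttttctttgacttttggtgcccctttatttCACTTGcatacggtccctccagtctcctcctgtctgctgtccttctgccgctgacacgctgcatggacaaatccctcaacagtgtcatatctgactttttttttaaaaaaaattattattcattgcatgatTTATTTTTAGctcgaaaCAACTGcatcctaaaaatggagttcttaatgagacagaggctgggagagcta
Actc1: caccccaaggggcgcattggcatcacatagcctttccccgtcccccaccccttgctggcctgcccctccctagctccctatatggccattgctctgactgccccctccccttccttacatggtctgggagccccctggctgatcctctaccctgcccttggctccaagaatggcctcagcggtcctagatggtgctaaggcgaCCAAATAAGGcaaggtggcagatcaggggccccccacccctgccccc
Mybpc2: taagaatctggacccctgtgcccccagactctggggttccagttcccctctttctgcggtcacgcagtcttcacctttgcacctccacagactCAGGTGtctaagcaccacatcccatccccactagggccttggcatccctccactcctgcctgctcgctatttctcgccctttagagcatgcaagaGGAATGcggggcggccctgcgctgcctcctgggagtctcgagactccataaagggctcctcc
The Casq1 stretch lies at chr1:172219896-172220145 on the minus strand, that of Casq2 at chr3:102086165-102086414 on the plus strand, that of Actc1 at chr2:114052876-114053125 on the minus strand and that of Mybpc2 at chr7:44524670-44524919 on the minus strand. Casq1 held the E-box CANNTG, the site of the MyoD family, with first bases at -195 and -67 from the start. Casq2 held an E-box at -200, a MEF2 site at -69 and an E-box at -52, Mybpc2 held an E-box at -157 and the M-CAT sequence CATTCC, on the other strand, at -62, and Actc1 held a CArG box, the site of serum response factor, at -47. Both strands were searched and overlapping matches of different motifs were each counted. Of the 42 members, 33 had an entry in the RefSeq promoter table, 7 of them with several starts, which gave 41 promoters. An E-box was present in 92.7% of these, against 66.2% of all 32851 promoters in the table. A MEF2 site was present in 9.76% of the members' promoters, against 2.92% of all, and a CArG box in 7.32%, against 1.47%. The TATA box TATAAA was present in 12.2%, against 12.4% of all, the M-CAT sequence CATTCC in 19.5%, against 12.6%, and the C/EBP-ATF element TGATGNAA in 2.44%, against 3.45%. E-boxes were in 88.9% of the 9 fast promoters, 100% of the 18 slow promoters and 85.7% of the 14 pan-muscle promoters. These shares describe letters in a window and say nothing of whether a factor binds there.

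Levels below are log2 of the background-subtracted spot intensity minus the 75th percentile of the array, so that 0 is that percentile. A change is a difference of group means on this scale, and a call means an adjusted p under 0.05 in a limma fit, by the Benjamini-Hochberg method over every gene of that fit. Every array had 59305 gene spots, none saturated, of which 41.0% to 53.1% were well above background. All 8 adult muscle markers were above background on every muscle array. Of the 8 differentiated myotube markers, Myog, Ckm, Acta1 and Des were above background on every C2C12 array. Myh3 and Myh8 were above it on both vehicle arrays, and Tnnt3 and Mymk on 1 of them. Myh8 was above it on 1 AP20187 array, while Myh3, Tnnt3 and Mymk had no unflagged value there. Cycling-cell markers in the C2C12 samples had summed levels of 65.0 to 76.8 after AP20187 and 66.6 to 72.7 with vehicle. Over the muscle arrays the sum was 12.8 to 17.6, all in multiples of the 75th percentile. The WT arrays were scanned in a session of their own, so scan session and genotype cannot be told apart in any comparison with WT, and the C2C12 arrays in a further session. The C2C12 AP20187 and vehicle arrays sat in different slide rows. In TG muscle the vehicle arrays sat in slide column 1 and the AP20187 arrays in columns 3 and 4, so treatment and column cannot be told apart there. In bulk samples fewer cells of a type and less RNA per cell cannot be told apart.

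AP20187 in TG muscle was followed by lower levels of 11 of the 42 members after 12 h, and no member passed the limma test upward (0 also at an unadjusted p under 0.05, and 17 lower). The falls spanned all 3 role groups: the fast genes Pvalb, Casq1, Mylpf and Tpm1, the slow or oxidative genes Casq2, Sln and Mb, and the pan-muscle genes Actc1, Jph2, Cav3 and Mybph. The largest was in cardiac actin, Actc1, and the calcium stores calsequestrin 1 and 2 both fell. Troponins, SERCA pumps, titin, nebulin and the ryanodine receptor did not pass the test. The 11 calls are 26.2% of the members, against 29.3% of the 13543 genes tested, of which 14.3% were higher and 15.0% lower.

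Among the fast genes, Pvalb, which encodes the cytosolic calcium buffer parvalbumin, had levels of 10.30 and 10.22 in TG AP20187 muscle, against 11.08 and 11.22 in TG vehicle muscle. Casq1 had 5.98 and 5.77 in TG AP20187 muscle, against 6.50 and 6.51 in TG vehicle muscle. Mylpf, the fast regulatory light chain, had 5.07 and 5.02 in TG AP20187 muscle, against 5.50 and 5.63 in TG vehicle muscle. In all 3 genes both AP20187 arrays lay below both vehicle arrays. The log2 changes were -0.89 for Pvalb (SE 0.11, adjusted p = 0.00176), -0.63 for Casq1 (SE 0.10, adjusted p = 0.00429) and -0.52 for Mylpf (SE 0.09, adjusted p = 0.00633). Tpm1, fast alpha-tropomyosin, had 10.46 and 10.41 in TG AP20187 muscle, against 10.74 and 10.85 in TG vehicle muscle, again without overlap (log2 change -0.36, SE 0.11, adjusted p = 0.0400). The other 8 fast genes did not pass: their log2 changes ran from -0.33 for Tnnc2, fast troponin C, to -0.07 for Mybpc2, fast myosin-binding protein C, and in 7 of the 8 both AP20187 arrays lay below both vehicle arrays, against 41.3% of all genes.

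Of the 14 slow or oxidative genes, Casq2, the calsequestrin of slow fibres and heart, had 3.20 and 2.98 in TG AP20187 muscle, against 4.23 and 3.86 in TG vehicle muscle. Sln, which encodes the SERCA inhibitor sarcolipin, had 1.04 and 1.06 in TG AP20187 muscle, against 2.15 and 1.69 in TG vehicle muscle. Mb, myoglobin, had 7.86 and 7.43 in TG AP20187 muscle, against 8.34 and 8.24 in TG vehicle muscle. The AP20187 arrays were again the lower ones in all 3 genes. Casq2 changed by -0.95 (SE 0.18, adjusted p = 0.00787), Sln by -0.87 (SE 0.22, adjusted p = 0.0218) and Mb by -0.64 (SE 0.14, adjusted p = 0.0138). The remaining 11 did not pass and ran from -0.27 for Atp2a2, which encodes SERCA2, to 0.16 for Mybpc1, slow myosin-binding protein C. Slow troponins T, I and C (Tnnt1, Tnni1 and Tnnc1) had log2 changes of -0.11, -0.03 and -0.08.

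In the pan-muscle group, Actc1, an actin of heart and developing skeletal muscle, had 5.38 and 4.64 in TG AP20187 muscle, against 6.71 and 6.33 in TG vehicle muscle. Jph2, a junctophilin that holds the junctional membranes near each other, had 2.02 and 2.09 in TG AP20187 muscle, against 3.01 and 2.92 in TG vehicle muscle. Cav3, the caveolin of the muscle membrane, had 5.39 and 5.41 in TG AP20187 muscle, against 5.82 and 6.11 in TG vehicle muscle. None of these ranges overlapped. Actc1 changed by -1.51 (SE 0.23, adjusted p = 0.00363), a 2.85-fold fall, Jph2 by -0.91 (SE 0.09, adjusted p = 0.000976) and Cav3 by -0.57 (SE 0.11, adjusted p = 0.00965). Mybph, myosin-binding protein H, had 4.87 and 5.01 in TG AP20187 muscle, against 5.49 and 5.20 in TG vehicle muscle (log2 change -0.41, SE 0.12, adjusted p = 0.0352). The other 12 members of the group ran from -0.36 for Ckm, muscle creatine kinase, to 0.16 for Ttn, titin, and Jph1, the second junctophilin, had 0.02.

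The medians were -0.30 for fast genes, -0.13 for slow or oxidative genes and -0.06 for pan-muscle genes, against -0.11 over all genes, and after quantile normalization they were -0.02, 0.09 and 0.09, against -0.01. Quantile normalization called 1 member higher and 8 lower. Both AP20187 arrays lay below both vehicle arrays in 22 members and above them in 1, Des (desmin), against 41.3% and 27.2% of all genes. Without the second AP20187 array 7 members were called, and Mb, Sln, Mybph and Tpm1 no longer passed (adjusted p of 0.0604, 0.0557, 0.0596 and 0.189). Beside these falls, 9 of the 10 tested macrophage markers were lower (median log2 change -0.94), and the summed level of 11 measured markers was 20.9 to 21.5 in TG AP20187 muscle, against 36.1 to 40.0 in TG vehicle muscle. Of 11 fibroblast and matrix markers 5 were lower, with sums of 407 to 496 in TG AP20187 muscle, against 480 to 557 in TG vehicle muscle. Of 3 tested lymphocyte markers 2 were lower, with sums over 7 markers of 7.82 to 8.73 in TG AP20187 muscle, against 13.3 to 14.0 in TG vehicle muscle. Of 6 Schwann cell markers 2 were lower, with sums of 17.8 to 21.1 in TG AP20187 muscle, against 25.0 to 28.8 in TG vehicle muscle. Differentiated myotube markers were higher in 1 and lower in 1 of 8. Myog had a mean level of 5.40 in TG AP20187 muscle, against 1.96 in TG vehicle muscle. The sums of this list were 4838 to 5482 in TG AP20187 muscle, against 6297 to 6414 in TG vehicle muscle. Of the macrophage list, Ptprc was above background with vehicle and not with AP20187, and Cd163 in neither group. Adgre1 and Csf1r were above it in both groups, and the part of these cells in the members' changes was not tested. Of 53 tested genes among 60 other sarcomere and triad genes, 3 were higher and 12 lower, with log2 changes of 2.43 for Ankrd1, a titin-binding stress gene, -0.77 for Asph, -0.74 for Myoz3, a calsarcin, and -0.94 for Cryab, a small heat shock protein.

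**Figure D1:**
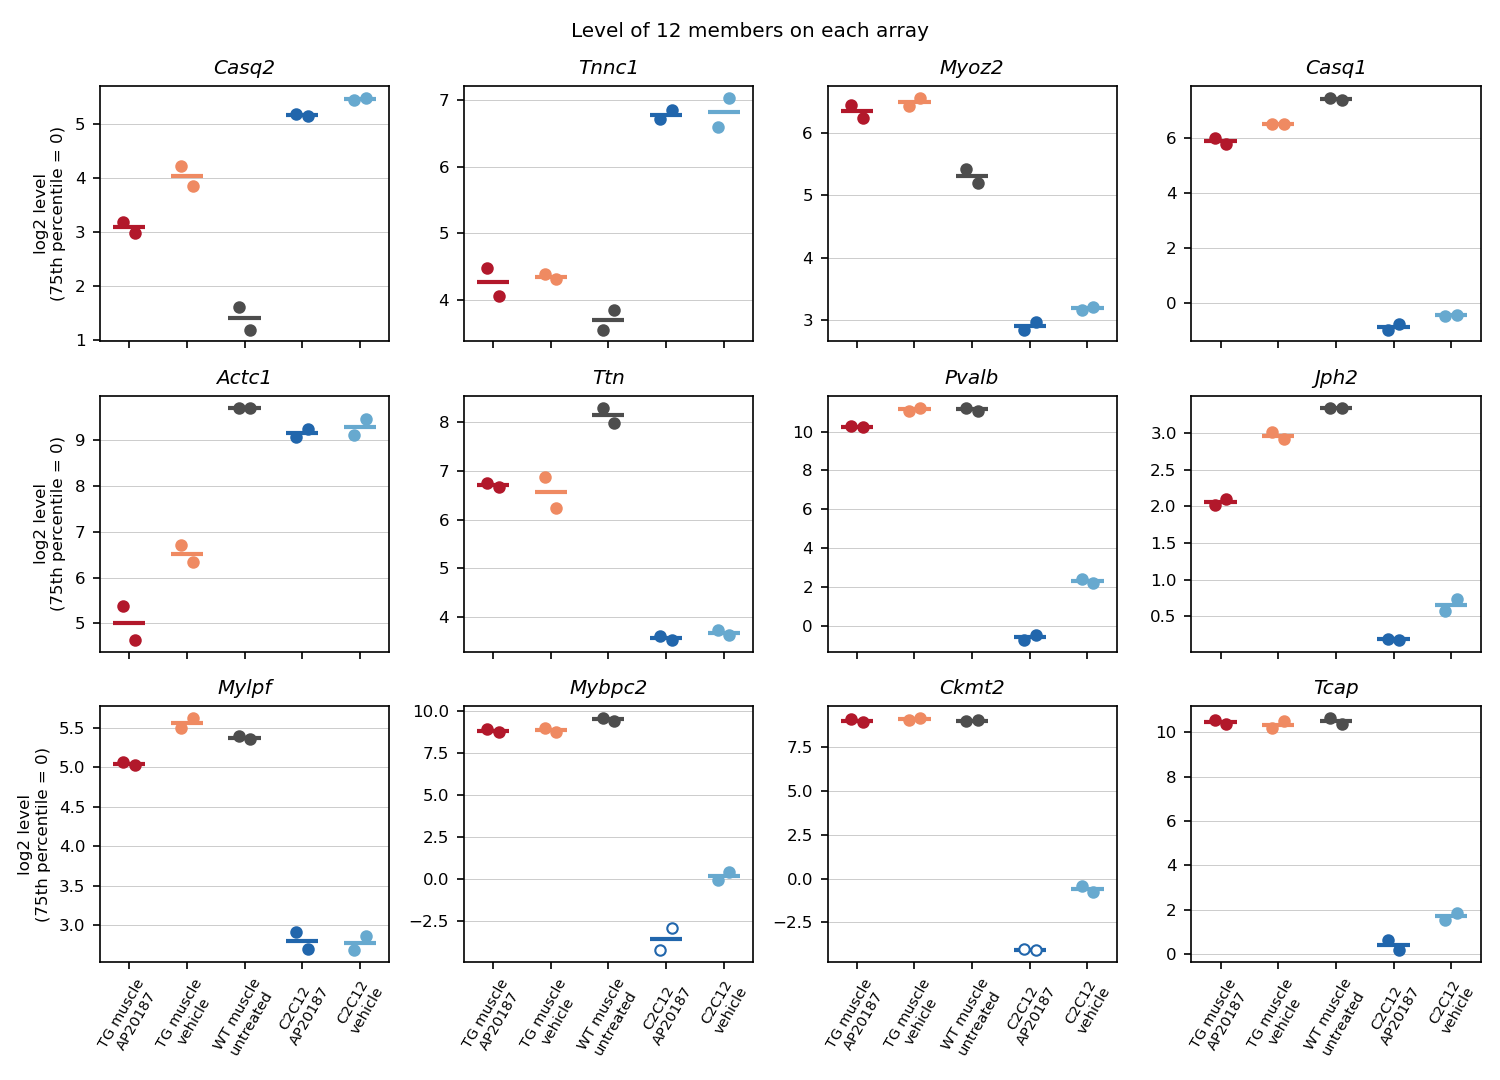
Level of 12 members on each array, as log2 intensity minus the array's 75th percentile (vertical axis, a separate scale per gene), for the 5 groups (horizontal axis); points are arrays, lines are means of 2, and open points were not well above background. Casq2 sits at 2.98 to 3.20 in TG AP20187 muscle and 3.86 to 4.23 in TG vehicle muscle, all above the 1.19 and 1.62 of WT muscle. Actc1 lies below WT muscle in both TG groups, and both genes are lower with AP20187 than with vehicle in TG muscle.

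TG muscle given vehicle differed from untreated WT muscle in members of all 3 role groups. Of the 14 slow or oxidative genes 9 rose and 2 fell, of the 12 fast genes 2 rose and 3 fell, and of the 16 pan-muscle genes 0 rose and 7 fell (1 higher and 7 lower at an unadjusted p under 0.05). Calsequestrin 2 was 6.21-fold higher and cardiac actin 9.04-fold lower. In all, 11 members were called higher and 12 lower, which is 26.2% and 28.6% of the members, against 25.7% and 12.6% of all genes tested.

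Casq2 had 4.23 and 3.86 in TG vehicle muscle, against 1.62 and 1.19 in WT muscle. Myoz2, the calsarcin of slow fibres and heart at the Z-disc, had 6.43 and 6.56 in TG vehicle muscle, against 5.43 and 5.20 in WT muscle. Tpm3, slow alpha-tropomyosin, had 3.80 and 3.76 in TG vehicle muscle, against 2.77 and 3.09 in WT muscle. The TG vehicle arrays were the higher ones in each of these genes. The log2 changes were 2.63 for Casq2 (SE 0.18, adjusted p = 8.15e-05), 1.18 for Myoz2 (SE 0.12, adjusted p = 0.000425) and 0.85 for Tpm3 (SE 0.14, adjusted p = 0.00253). Slow troponin T, Tnnt1, had 8.03 and 7.93 in TG vehicle muscle, against 7.09 and 7.27 in WT muscle (log2 change 0.80, SE 0.13, adjusted p = 0.00255). Slow troponin I, Tnni1, had 5.16 and 4.95 in TG vehicle muscle, against 3.94 and 4.17 in WT muscle. It changed by 1.00 (SE 0.20, adjusted p = 0.00628), again with no overlap between the groups. The slow light chain Myl3 (0.74), the LIM protein Csrp3 (0.70), SERCA2 (Atp2a2, 0.68) and troponin C of slow fibres and heart (Tnnc1, 0.65) also rose. Among the slow or oxidative genes Mb and Mybpc1 went the other way, with log2 changes of -0.52 (SE 0.14, adjusted p = 0.0217) and -0.41 (SE 0.13, adjusted p = 0.0422). The slow or cardiac regulatory light chain Myl2 had a log2 change of 0.31, Sln 0.52 and Ckmt2, the mitochondrial creatine kinase of sarcomeric muscle, 0.09, and these 3 did not pass.

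Of the fast genes, Casq1 had 6.50 and 6.51 in TG vehicle muscle, against 7.47 and 7.40 in WT muscle (log2 change -0.92, SE 0.10, adjusted p = 0.000567). Mybpc2 had 8.96 and 8.75 in TG vehicle muscle, against 9.56 and 9.39 in WT muscle (log2 change -0.62, SE 0.12, adjusted p = 0.00583). Actn3, the fast alpha-actinin of the Z-disc, had 9.69 and 9.61 in TG vehicle muscle, against 10.13 and 9.97 in WT muscle (log2 change -0.39, SE 0.11, adjusted p = 0.0248). In each of the 3 the TG vehicle arrays were below the WT arrays. Tnnc2 had 11.52 and 11.59 in TG vehicle muscle, against 11.20 and 10.96 in WT muscle, and rose by 0.48 (SE 0.12, adjusted p = 0.0170). The fast essential light chain Myl1 had 10.75 and 10.81 in TG vehicle muscle, against 10.50 and 10.33 in WT muscle, with a log2 change of 0.37 (SE 0.11, adjusted p = 0.0280) that depended on the probe, since a second probe differed in sign. The other 7 fast genes did not pass and ran from -0.20 for Myoz1 to 0.33 for Tnnt3, fast troponin T.

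The pan-muscle falls were led by Actc1, which had 6.71 and 6.33 in TG vehicle muscle, against 9.69 and 9.70 in WT muscle. Titin, the spring that spans each sarcomere from Z-disc to M-line, had Ttn levels of 6.88 and 6.23 in TG vehicle muscle, against 8.30 and 7.99 in WT muscle. Mybph had 5.49 and 5.20 in TG vehicle muscle, against 6.46 and 6.40 in WT muscle. Both TG vehicle arrays were lower than both WT arrays in each gene. The log2 changes were -3.18 for Actc1 (SE 0.23, adjusted p = 0.000112), -1.59 for Ttn (SE 0.20, adjusted p = 0.00103) and -1.08 for Mybph (SE 0.12, adjusted p = 0.000586). Jph1 had 0.85 and 0.74 in TG vehicle muscle, against 1.59 and 1.56 in WT muscle (log2 change -0.78, SE 0.10, adjusted p = 0.00124). Neb (nebulin, -0.90), Cacna1s (the voltage sensor of excitation-contraction coupling, -0.39) and Jph2 (-0.38) fell as well. The adult skeletal actin Acta1, by contrast, had a log2 change of -0.03 and did not pass.

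The medians were 0.09 for fast, 0.69 for slow or oxidative and -0.19 for pan-muscle genes, against 0.09 for all genes, and -0.18, 0.41 and -0.48 after quantile normalization, against 0.01. Quantile normalization called 6 members higher and 18 lower, and the percentile over detected probes, which moved the median of all genes to -0.07, called 7 higher and 13 lower. Leaving out the second TG vehicle array left 12 calls, the first WT array 14 and the second WT array 15. Under every alternative fit of the probe used, 9 calls were kept: Casq1, Tnni1, Casq2, Tpm3, Myoz2, Actc1, Ttn, Mybph and Jph1. Both arrays of the TG vehicle group lay above both WT arrays in 20 members and below in 13, against 42.8% and 28.5% of all genes. Beside the pan-muscle falls, 6 of 8 tested cycling-cell markers were lower and 1 was higher (median log2 change -1.88). Pcna had a mean level of 3.34 in TG vehicle muscle, against 2.66 in WT muscle. The markers Top2a, Ccnb1 and Cdk1 were above background on both WT arrays and on neither TG vehicle array. Their list summed to 16.3 to 17.6 in TG vehicle muscle, against 13.4 to 14.4 in WT muscle, so that the sum did not move the same way. Of 8 differentiated myotube markers, which include the members Ckm, Acta1, Tnnt3 and Des, 3 were higher and 1 lower. Mean levels in TG vehicle muscle were 1.96 for Myog, 1.33 for Myh3 and 4.83 for Myh8. In WT muscle they were 0.68, -0.55 and 5.48. Of 6 vascular smooth muscle markers 3 were higher, with sums of 131 to 133 in TG vehicle muscle, against 108 to 125 in WT muscle. Of 11 adipocyte markers 2 were higher and 1 lower, with sums of 389 to 503 in TG vehicle muscle, against 298 to 367 in WT muscle. Of 11 fibroblast and matrix markers 2 were lower, with sums of 480 to 557 in TG vehicle muscle, against 584 to 640 in WT muscle. The part of these lists in the members' changes was not tested. Among the 53 tested other sarcomere and triad genes 9 rose and 10 fell, led by p with Ankrd1 (2.92), Myoz3 (-1.18), the skeletal myosin light chain kinase Mylk2 (-0.96) and Obsl1 (-1.05).

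**Figure D2:**
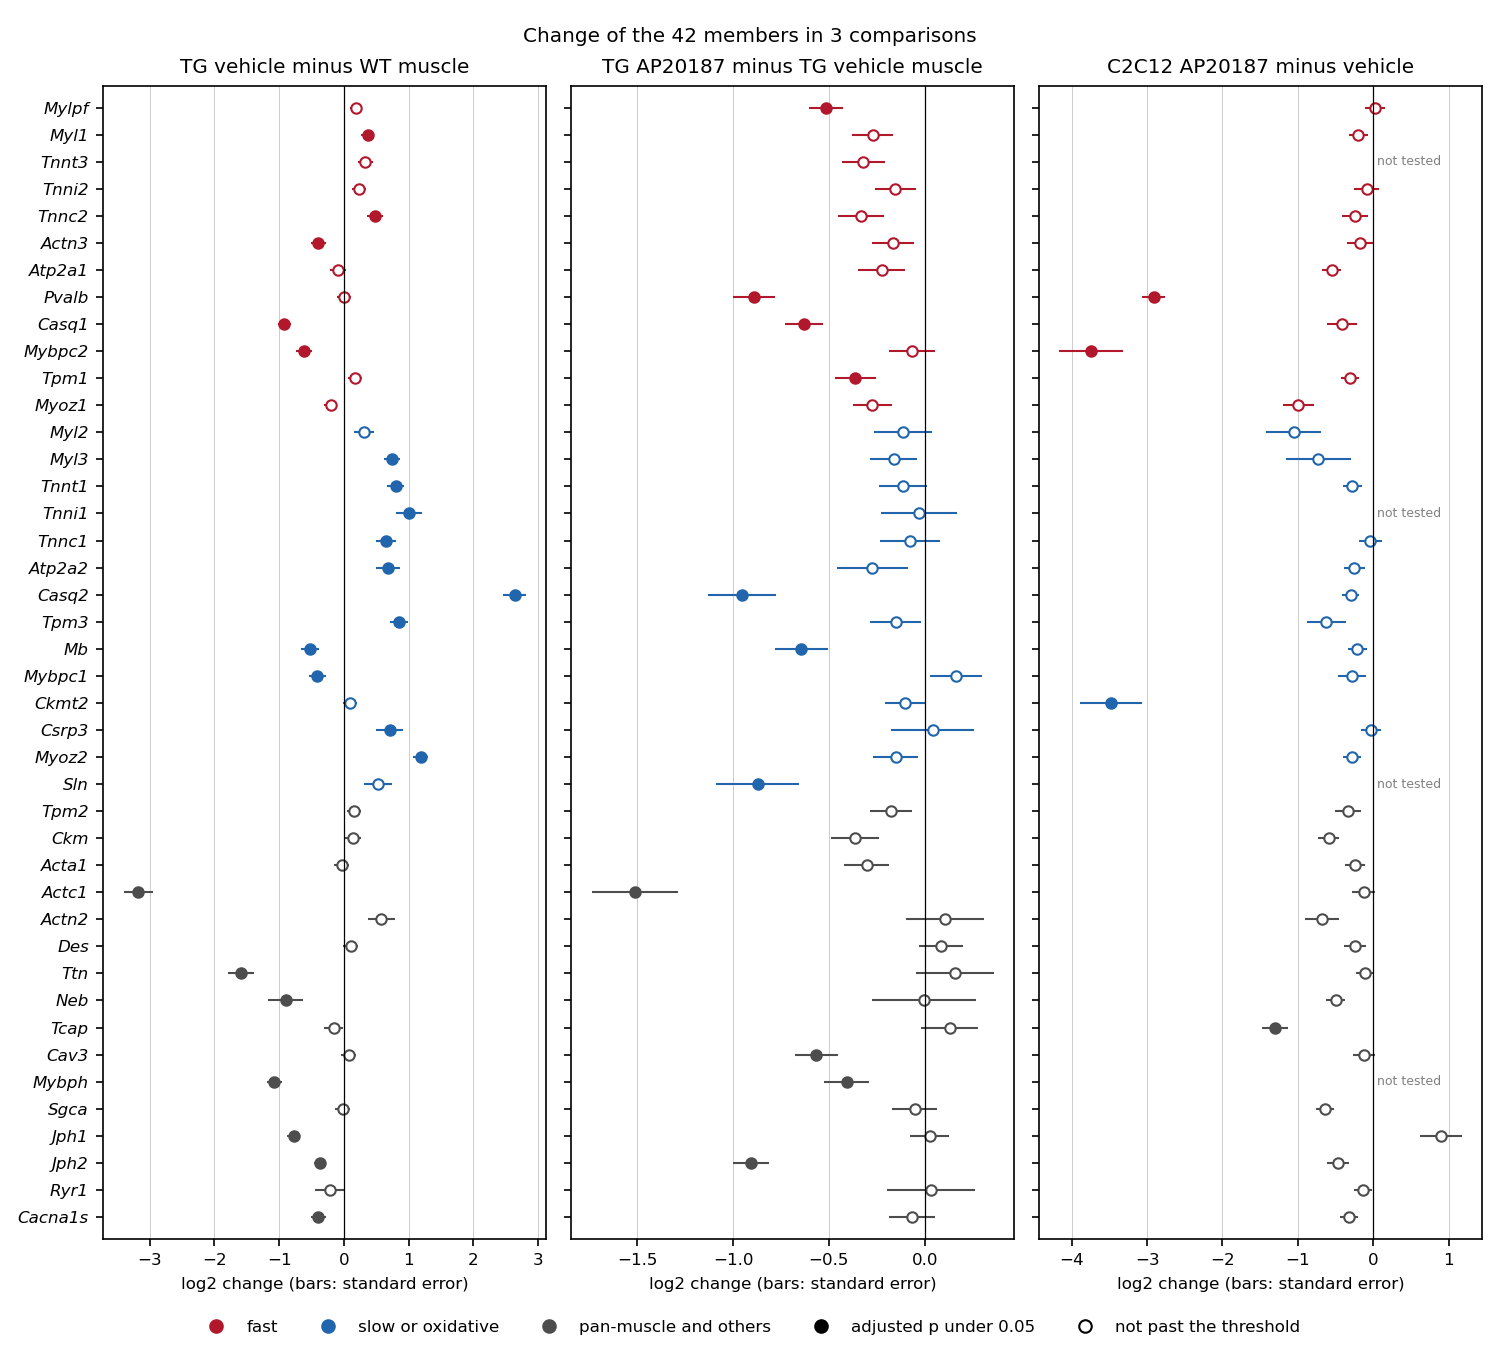
Log2 change of each member (rows, coloured by role) in TG vehicle minus WT muscle, TG AP20187 minus TG vehicle muscle, and C2C12 AP20187 minus vehicle (panels, each with its own horizontal scale); lines are standard errors of the limma fit and filled points passed an adjusted p under 0.05. Slow genes sit mostly right of 0 in the first panel, with Casq2 at 2.63, and all filled points of the other panels lie left of 0. Mybpc2, Ckmt2 and Myl2 in the C2C12 panel rest on AP20187 signals not well above background.

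For 11 proteins with a fast and a slow counterpart, the log2 difference of the 2 genes was taken within each muscle array. Its change between groups was described without a test, since the levels of different probes cannot be set against each other. Actn3/Actn2 is counted as such a pair, although Actn2 stands with the pan-muscle genes and not with the slow ones. The difference fast minus slow was lower in TG vehicle than in WT muscle in 11 of 11 pairs, with no overlap between arrays in 9 and a median change of -0.67. In TG AP20187 muscle it was below WT in 11 of 11 pairs without overlap, with a median change of -0.73. The WT arrays serve in both comparisons. No share without overlap was computed over other pairs of genes, so these counts have no background of their own. Of all single genes, 42.8% lay higher and 28.5% lower without overlap in TG vehicle against WT muscle. The shares were 41.7% and 36.0% in TG AP20187 against WT muscle, and 27.2% and 41.3% in TG AP20187 against TG vehicle muscle. Casq1/Casq2 had the lowest change in each, at -3.24 in TG AP20187 muscle and -3.56 in TG vehicle muscle relative to WT, followed by Myoz1/Myoz2 at -1.51 in TG AP20187 muscle and -1.39 in TG vehicle muscle. The change was -1.25 with AP20187 and -0.97 with vehicle for Actn3/Actn2, where Actn2 is the alpha-actinin of all fibres. It was -0.90 with AP20187 and -0.78 with vehicle for the troponin I genes Tnni2/Tnni1. For the tropomyosins Tpm1/Tpm3 it was -0.88 with AP20187 and -0.67 with vehicle. Mylpf/Myl2 overlapped between TG vehicle and WT muscle, with a change of -0.13, as did Tnnc2/Tnnc1 with -0.17. Between TG AP20187 and TG vehicle muscle the change ran from -0.40 for Mylpf/Myl2 to 0.32 for Casq1/Casq2, was lower in 9 pairs, 6 of them without overlap, and higher in 2, of which Casq1/Casq2 did not overlap.

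**Figure D3:**
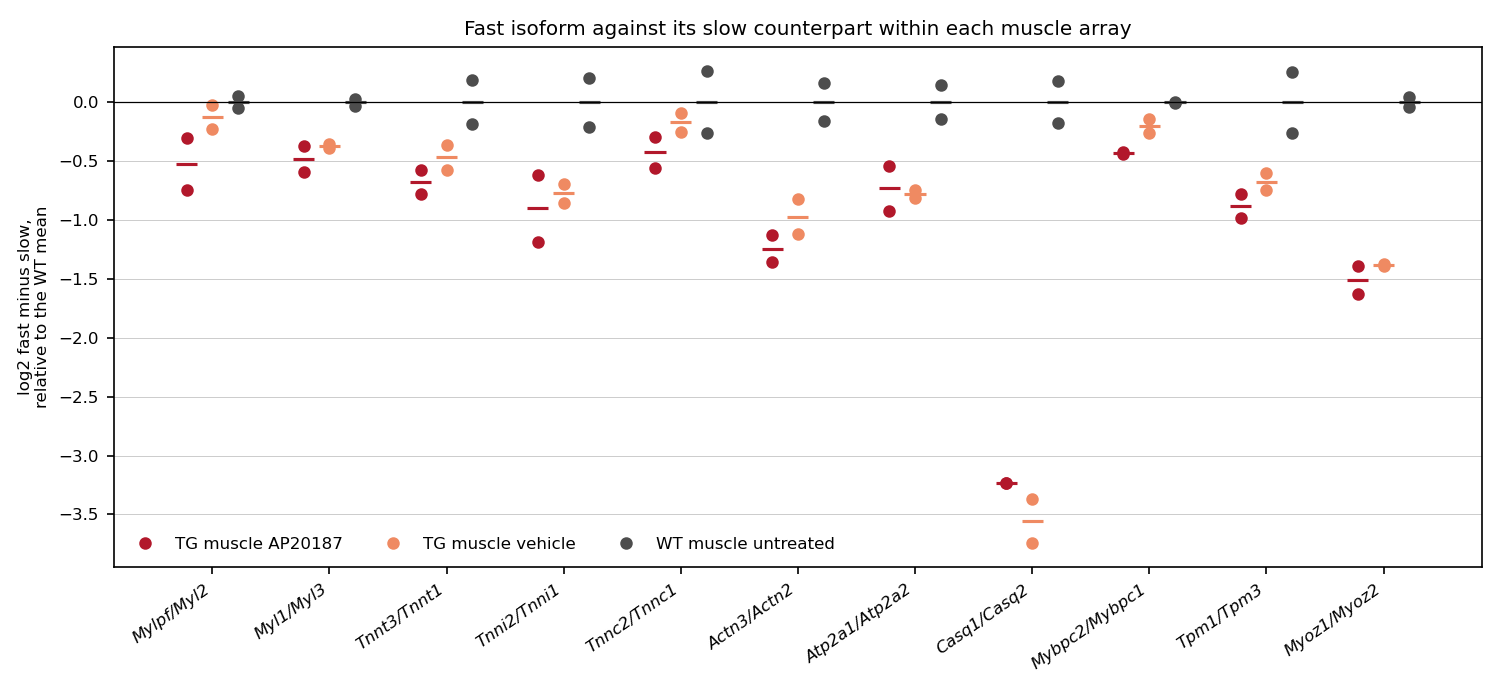
Log2 fast minus slow level within each muscle array for 11 counterpart pairs (horizontal axis), set to 0 at the WT mean of each pair (vertical axis, log2 units); points are arrays and lines are means of 2. In every pair both TG means lie below the WT mean, and Casq1/Casq2 lies lowest, at -3.24 with AP20187 and -3.56 with vehicle.

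Set against WT directly, TG AP20187 muscle had 9 members higher and 16 lower, which is 21.4% and 38.1% of the members, against 29.6% and 22.7% of all genes (52.2% in either direction). Both TG AP20187 arrays lay above both WT arrays in 10 members and below in 20, against 41.7% and 36.0% of all genes. Of the 12 fast genes 0 rose and 6 fell (0 and 7 at an unadjusted p under 0.05), 8 of the 14 slow or oxidative genes rose and 1 fell, and 1 pan-muscle gene rose and 9 of the 16 fell. Actc1 had 5.38 and 4.64 in TG AP20187 muscle, against 9.69 and 9.70 in WT muscle (log2 change -4.69, SE 0.23, adjusted p = 7.14e-06), a 25.8-fold fall. Casq1 had 5.98 and 5.77 in TG AP20187 muscle, against 7.47 and 7.40 in WT muscle (log2 change -1.55, SE 0.10, adjusted p = 2.84e-05). Casq2 had 3.20 and 2.98 in TG AP20187 muscle, against 1.62 and 1.19 in WT muscle (log2 change 1.68, SE 0.18, adjusted p = 0.000223). The 2 calsequestrins thus stood on opposite sides of their WT levels in both TG groups. Jph2 (-1.28), Mybph (-1.49), Mb (-1.16) and Ttn (-1.43) were lower than in WT, as were the fast genes Pvalb (-0.88), Mybpc2 (-0.69), Actn3 (-0.56), Myoz1 (-0.48) and Mylpf (-0.33).

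The slow genes above WT were Casq2, Myoz2 (1.03), Tnni1 (0.97), Csrp3 (0.74), Tpm3 (0.70), Tnnt1 (0.69), Tnnc1 (0.57) and Myl3 (0.57), and Actn2 (0.68) was the pan-muscle gene above it. Actin of adult skeletal muscle, Acta1, changed by -0.34 (SE 0.12, adjusted p = 0.0409), and Cav3 by -0.49, Jph1 by -0.75, Neb by -0.90 and Cacna1s by -0.46. Ryr1, the calcium release channel, had -0.19 and did not pass. The 17 members that did not pass ran from -0.35 for Sln to 0.41 for Atp2a2. In this comparison 10 of 10 tested macrophage markers were lower, with sums of 20.9 to 21.5 in TG AP20187 muscle, against 42.5 to 45.3 in WT muscle. Fibroblast and matrix markers were lower in 6 of 11, with sums of 407 to 496 in TG AP20187 muscle, against 584 to 640 in WT muscle. Cycling-cell markers were lower in 7 of 8 tested and higher in 1. Their sums overlapped, at 12.8 to 14.2 in TG AP20187 muscle, against 13.4 to 14.4 in WT muscle. Lymphocyte markers were lower in 2 of 3 tested, and no list's part in the members' changes was tested. Of the 53 other sarcomere and triad genes 7 rose and 26 fell, led by Ankrd1 (5.35), Myoz3 (-1.92), Asph (-1.19) and Camk2a (-1.08).

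In C2C12 cells AP20187 was followed by lower levels of 4 of the 38 members tested, and none passed the limma test upward (1 did at an unadjusted p under 0.05, with 18 lower). They were Pvalb, Mybpc2, Ckmt2 and Tcap, which encodes the titin cap protein telethonin. All 4 had far higher levels in muscle tissue than in these cells, but 37 of the 42 members were higher in TG vehicle muscle. The other 34 members tested with AP20187, including all slow troponin, SERCA and calsequestrin genes tested, did not pass. Of all 11409 genes tested 0.167% were called lower, 0.316% higher and 0.482% in either direction. Mybpc2 and Ckmt2 passed the filter through the vehicle group alone, so the members' share of calls is not read against these.

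Pvalb had -0.73 and -0.48 in AP20187 cells, against 2.40 and 2.22 in vehicle cells (log2 change -2.91, SE 0.15, adjusted p = 3.89e-06), a 7.54-fold fall. Mybpc2 had -4.26 and -2.93 in AP20187 cells, against -0.09 and 0.37 in vehicle cells. Ckmt2 had -4.03 and -4.09 in AP20187 cells, against -0.42 and -0.75 in vehicle cells. For these last genes neither AP20187 array was well above background, so the sizes of the falls are not measured (limma adjusted p = 0.00161 for Mybpc2 and 0.00234 for Ckmt2). Against the lowest signal well above background on each array, the falls were 6.85-fold for Mybpc2 and 4.15-fold for Ckmt2. These are not strict minima, since a spot brighter than that signal can still fail the background call, as Myl2 did. Tcap had 0.61 and 0.18 in AP20187 cells, against 1.53 and 1.87 in vehicle cells (log2 change -1.31, SE 0.17, adjusted p = 0.00449). No array of either group overlapped with the other in the 4 genes. Myl2, also not well above background after AP20187, had -2.30 and -2.41 in AP20187 cells, against -0.87 and -1.73 in vehicle cells. It did not pass the limma test (adjusted p = 0.245).

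Jph1 had a positive log2 change of 0.90 (adjusted p = 0.201), with -1.11 and -1.07 in AP20187 cells, against -2.02 and -1.96 in vehicle cells, the second of which was not well above background. The other members that did not pass ran from -1.05 for Myl2 and -0.99 for Myoz1 to 0.03 for Mylpf. Tnni1 and Mybph had no unflagged value in AP20187 cells, Tnnt3 had 1 unflagged array of 4, and Sln was not well above background on any C2C12 array, so these 4 were not tested. Tnni2 entered the fit without the second AP20187 array, and Tnnc2 and Actn3 without the first. Of 35 members with all values, both AP20187 arrays were below both vehicle arrays in 26 and above in 1, against 30.0% and 16.6% of all genes.

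The medians were -0.31 for fast, -0.28 for slow or oxidative and -0.32 for pan-muscle genes, against -0.06 for all genes, and -0.07, 0.29 and 0.13 after quantile normalization, which moved the median of all genes to 0.38 and called 13 members higher and 6 lower. The authors' deposited table of log2 values gave 0 calls by limma (1 higher and 16 lower at an unadjusted p under 0.05), although its log2 changes for the 4 genes ran from -3.76 to -1.33, and without the second vehicle array 1 was called. Treatment and slide row cannot be told apart here. Beside the falls, 6 of 10 tested adipocyte markers were higher after AP20187 (median log2 change 3.05), with sums over 11 markers of 11.9 to 16.5 in AP20187 cells, against 2.40 to 2.76 in vehicle cells. Adipoq, Cidec and Thrsp were above background on both AP20187 arrays and neither vehicle array. Cfd, Fabp4, Plin1, Retn and Lpl were above it on both AP20187 arrays and 1 vehicle array. These genes passed the filter through the AP20187 group alone, so the count is not read as a result and the median is not a measured size. The part of such cells in the members' changes was not tested. Of 45 tested other sarcomere and triad genes 0 were called by limma (2 higher and 13 lower at an unadjusted p under 0.05).

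The response to AP20187 was compared between muscle and C2C12 cells as the difference of the log2 changes, muscle minus C2C12, in a fit of all 10 arrays, with 39 members tested. It was higher in 6 and lower in 3, which is 15.4% and 7.69% of the members tested, against 8.01% and 4.02% of all genes and 12.0% in either direction. Mybpc2 had a log2 change of -0.07 in muscle, and in C2C12 cells fell by 2.78 against the lowest signal well above background. Ckmt2 had a log2 change of -0.10 in muscle, and in C2C12 cells fell by 2.05 against that signal. Both differences were called higher (adjusted p = 0.00149 for Mybpc2 and 6.02e-06 for Ckmt2), but they were fitted on C2C12 AP20187 signals not well above background, so their sizes are not measured. The members' share of higher calls includes these genes and is not read against that of all genes. Pvalb fell in both systems, by less in muscle, with a difference of 2.02 (SE 0.17, adjusted p = 0.000201). Tcap had 0.13 in muscle and -1.31 in C2C12 cells, a difference of 1.44 (SE 0.25, adjusted p = 0.00623).

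Actc1 had a log2 change of -1.51 in muscle and -0.13 in C2C12 cells, a difference of -1.38 (SE 0.31, adjusted p = 0.0183). Jph1 had 0.02 in muscle and 0.90 in C2C12 cells, a difference of -0.87 (SE 0.19, adjusted p = 0.0156). The other called differences were 0.72 for Myoz1, 0.59 for Sgca, which encodes alpha-sarcoglycan of the dystrophin complex, and -0.54 for Mylpf. Casq2 had a difference of -0.65 that did not pass (adjusted p = 0.0793). Quantile normalization called 6 higher and 9 lower, the normexp background 5 and 4, the percentile over detected probes 4 and 3, and the authors' deposited table of log2 values 4 and 1. Without the first TG vehicle array 4 differences were called, and without the first C2C12 vehicle array 5. Dose, route and cell composition differ between mice and culture, so system and these cannot be told apart.

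In levels, TG vehicle muscle had 37 members higher and 5 lower than vehicle-treated C2C12 cells, which is 88.1% and 11.9% of the members, against 40.2% and 38.5% of all genes (78.7% in either direction). The members lower in muscle were Actc1, Tnnc1, Tnni1, Mybph and Casq2, which include cardiac and slow isoforms that young myotubes also make. Actc1 had 6.71 and 6.33 in TG vehicle muscle, against 9.11 and 9.45 in C2C12 vehicle cells (log2 difference -2.76, SE 0.22, adjusted p = 4.89e-07). Tnnc1 had 4.40 and 4.31 in TG vehicle muscle, against 6.59 and 7.03 in C2C12 vehicle cells (log2 difference -2.46, SE 0.17, adjusted p = 1.63e-07). The differences were -1.80 for Tnni1, -1.62 for Mybph and -1.43 for Casq2. In all 5 genes both muscle arrays lay below both cell arrays, against 43.3% of all genes, and 36 of the 41 members with all values had both muscle arrays above, against 45.0%.

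All 12 fast genes were higher in muscle, from 2.31 for Tnnc2 to 9.12 for Myoz1, with a median of 4.46. Slow or oxidative genes had a median of 3.77 and pan-muscle genes one of 2.71, against 0.04 for all genes and -0.18 with the percentile over detected probes. Myl3 had 9.10 and 9.13 in TG vehicle muscle, against -1.47 and -1.72 in C2C12 vehicle cells (log2 difference 10.71, SE 0.29, adjusted p = 1.19e-10). Ckmt2 had 9.08 and 9.18 in TG vehicle muscle, against -0.42 and -0.75 in C2C12 vehicle cells (log2 difference 9.71, SE 0.12, adjusted p = 7.91e-13). The C2C12 signal of Sln was not well above background. In muscle Sln was 25.9-fold above the lowest C2C12 vehicle signal that was, which is not a strict minimum. Tnnt1 had a log2 difference of 0.42 (SE 0.13, adjusted p = 0.0103), which became -0.18 after quantile normalization. Tissue, culture, scan session and the other cell types of muscle cannot be told apart in these levels.

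**Figure D4:**
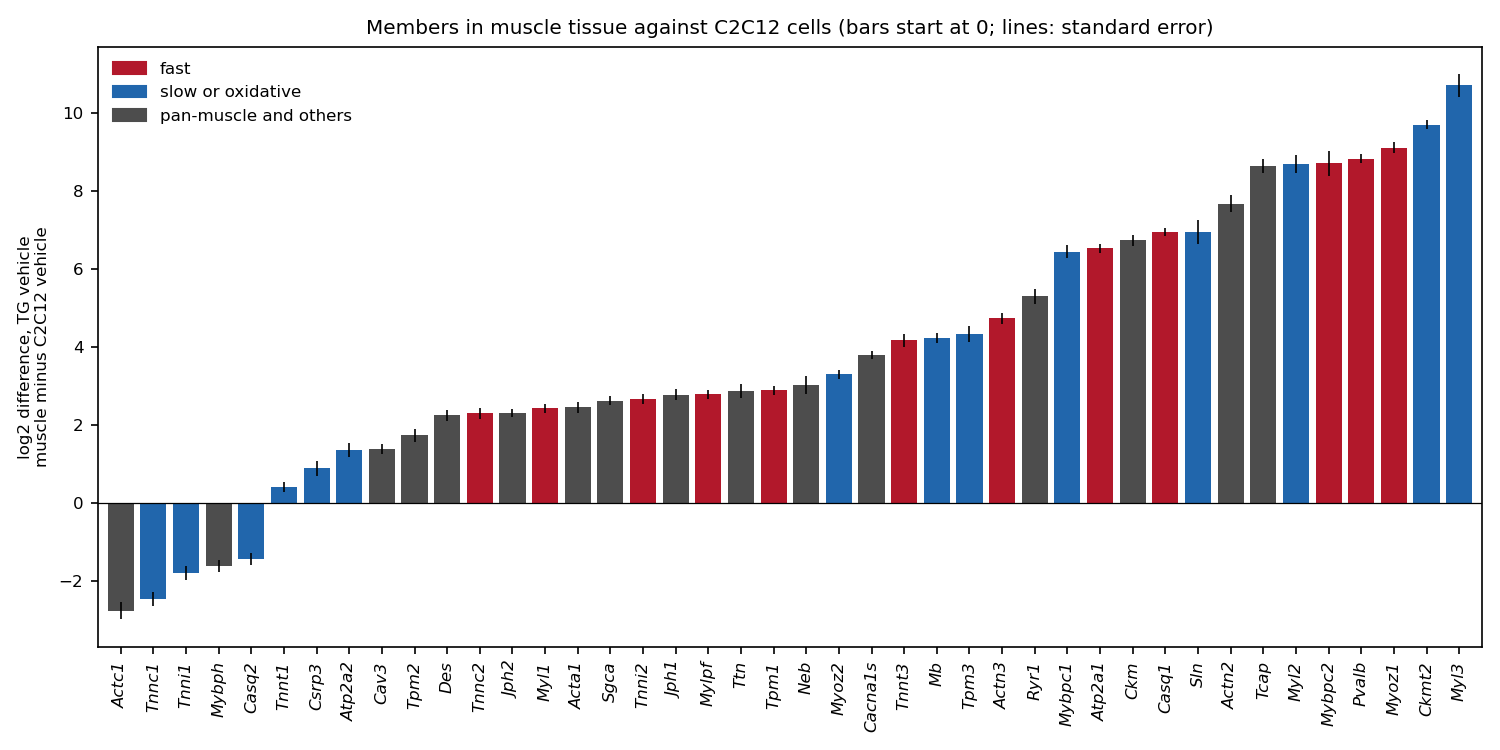
Log2 difference of each member (horizontal axis, sorted) between TG vehicle muscle and C2C12 vehicle cells (vertical axis, muscle minus cells); bars are limma estimates coloured by role and lines are standard errors. The 5 bars below 0 run from Actc1 at -2.76 to Casq2 at -1.43, and the 37 above 0 reach Myl3 at 10.71. The bar of Sln rests on a C2C12 signal not well above background.

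For 11 members the array held several probes, and for some of these the probe decided the direction. The Myl1 probe used above names the transcript NM_021285, and a second probe names NM_001113387. The second had 7.98 and 8.08 in TG AP20187 muscle, 8.55 and 8.60 in TG vehicle muscle and 9.07 and 9.05 in WT muscle. It was lower without overlap in both steps, with log2 changes of -0.55 with AP20187 against vehicle and -0.48 in TG vehicle against WT muscle, where the first had -0.27 and 0.37. For Ttn, 3 of 4 probes had log2 changes of -1.59 to -1.25 in TG vehicle against WT muscle, and the probe for NM_028004 had 0.09. That probe had -0.46 with AP20187 against vehicle, where the probe used above had 0.16. The second Pvalb probe had -0.51 in TG vehicle against WT muscle, where the first had 0.01, and both were lower with AP20187 in muscle (-0.89 and -0.68).

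The tropomyosin genes make muscle and non-muscle transcripts, and their probes split between muscle and cells. The Tpm1 probes for NM_001164249 and NM_001164251 were lower in TG vehicle muscle than in C2C12 vehicle cells, by -3.67 and -0.95, where the probe used above was higher by 2.89. The second Tpm3 probe had a log2 difference of -1.98 in muscle against cells, where the first had 4.34. In TG vehicle against WT muscle this second Tpm3 probe had 0.24, and the first 0.85. The values of these genes are therefore those of a probe and not of the whole gene.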

How the data were processed

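RNA was measured on 10 single-colour arrays (Cy3). Each deposited scanner file gave a background-subtracted spot intensity on a linear scale, made with Agilent Feature Extraction 10.7.1.1 per the submitters' processing notes. The authors' deposited table holds these arrays on a log2 scale. Array-to-array differences in it and in the scanner values correlated at 0.9998 or more, which gives its scale and direction, while its baseline is unknown. Its column medians were -0.37 and -0.58 for TG AP20187 muscle, -0.42 and -0.35 for TG vehicle muscle, -0.46 and -0.45 for WT muscle, 0.80 and 0.78 for C2C12 AP20187 and 0.34 and 0.70 for C2C12 vehicle.

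Of 62976 spots per array 3671 controls were left out. The 75th percentile over all gene spots was subtracted from log2 intensity, outlier-flagged spots (0.160% to 2.37%) were dropped and spots of a probe averaged. Unversioned RefSeq accessions gave 26056 of 55681 probes a symbol through a table of GRCm38.p6, used here for names and promoters; a further 29625 stayed unnamed. The brightest probe stood for a gene, and probes with a value on all arrays were preferred. A gene was tested where 1 group or more had it well above background on each of its arrays, with limma 3.58.1 in R 4.3.3 (lmFit, eBayes with trend), with 3 residual degrees of freedom over the 6 muscle arrays, 2 over the 4 C2C12 arrays and 5 over all 10. All 42 members passed this filter in the fits with muscle arrays and 40 in the C2C12 fit, of which 38 had unflagged values to compare. The script was tested on simulated data. The number of arrays limits the precision.

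The members, role groups, other gene lists and tests were chosen with earlier results of these data known. Values per array are given for up to 4 called members per role and direction by smallest p and for counterpart pairs. Alternatives were quantile normalization, normexp on the median signal (the mean signal is not in the files), the percentile over detected probes or over probe averages, the deposited table, mean over probes, each probe alone, no filter, flagged spots kept, other sets of arrays, no variance trend, the replicate number as a block and each array left out. The percentile over probe averages and each probe alone were added after seeing the data.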

Additional observations from a re-analysis of the deposited data

Results flagged for a closer look

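The change with AP20187 differed between muscle and C2C12 cells, by a limma test of the difference (muscle minus C2C12, log2), for 9 members. It was 3.67 for Mybpc2, 3.37 for Ckmt2, 2.02 for Pvalb, 1.44 for Tcap, 0.72 for Myoz1 and 0.59 for Sgca. For Mylpf, Jph1 and Actc1 it was -0.54, -0.87 and -1.38. The differences for Mybpc2, Ckmt2, Pvalb and Tcap passed under every alternative fit. Those for Mybpc2 and Ckmt2 were fitted on C2C12 AP20187 signals not well above background, so these 2 sizes are not measured. Against the lowest signal well above background, the falls in C2C12 cells were 2.78 and 2.05 on the log2 scale.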

How the results depend on the processing

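Calls kept under every alternative fit, single probes aside, were 7 of 11 for AP20187 against vehicle in muscle, 9 of 23 for TG vehicle against WT, 14 of 25 for TG AP20187 against WT, 0 of 4 in C2C12, 4 of 9 for the difference and 40 of 42 for muscle against cells. Counts for TG vehicle against WT were 15 without the filter and 15 without the variance trend. C2C12 counts were 19 with quantile normalization, 7 with normexp, 7 without the filter, 7 with all 10 arrays, 2 without the trend and 0 with the deposited table. Counts for the difference were 15 with quantile normalization, 5 with the deposited table and 5 without the trend. With each array left out, the counts ran from 7 to 10, 12 to 24, 20 to 25, 1 to 6, 4 to 10 and 41 to 42 in the same order of comparisons.

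Signs turned with quantile normalization in TG vehicle against WT for Pvalb (-0.25), Tpm2 (-0.34), Des (-0.43) and Cav3 (-0.31). They turned in C2C12 for Actn3 (0.72), Tnnt1 (0.49), Tnnc1 (0.83), Casq2 (0.78), Mb (0.55), Csrp3 (0.68), Tpm2 (0.52), Des (0.76), Ttn (0.59), Cav3 (0.83) and Cacna1s (0.66). They also turned for Actn3 in the difference (-0.65) and for Tnnt1 in muscle against cells (-0.18). With the mean over probes Myl1 turned in TG vehicle (-0.059) and TG AP20187 (-0.47) against WT, and Tpm1 in the difference (1.43). Other single probes turned Tpm1 (0.066 and 0.14) and Ttn (-0.46) with AP20187 in muscle. In TG vehicle against WT they turned Ttn (0.095), Myl1 (-0.48) and Pvalb (-0.51), in TG AP20187 against WT Myl1 (-1.03), and in the difference Ttn (-0.66). In muscle against cells they turned Tpm1 (-3.67 and -0.95) and Tpm3 (-1.98). The cause was not tested.

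Replicates share only a number: deviations of same-numbered muscle samples correlated at 0.20, 0.05 and 0.16, and those of C2C12 at 0.06. With the replicate block the counts were 12, 24, 27, 6, 10 and 42 in the order above. A fit with scan session as a block was not run, since WT, TG and C2C12 arrays each fill a session of their own. The 2 arrays a group limit all tests, and in C2C12 cells Tnni1, Mybph, Tnnt3 and Sln could not be tested.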
